A study of Mus musculus with 6 samples.

Results

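The genes described here are 10 components of the mTOR and AMPK nutrient sensing pathways, measured by RNA sequencing of mouse oocytes: Mtor, Rptor, Rictor, Mlst8, Tsc1, Tsc2, Rheb, Stk11, Prkaa1 and Prkaa2. They were taken by gene name from the deposited tables, where each of the 10 names matched 1 of 54532 genes, and all 10 had enough counts to be tested. The mTOR kinase acts in a pair of complexes. One holds Rptor and drives protein synthesis and growth when amino acids and growth factor signals are present, and the other holds Rictor and phosphorylates Akt family kinases. AMPK is switched on when cellular energy is low, through phosphorylation by the kinase encoded by Stk11, and it holds the Rptor-containing complex back, in part through the Tsc proteins. In the ovary this pathway is known for its part in keeping primordial follicles dormant and in oocyte growth.

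The series compared oocytes of C57BL/6J mice in 3 libraries labelled control and 3 labelled AMH treated, with an age of 6 to 7 weeks in the labels of both groups. AMH, anti-Müllerian hormone, is a growth inhibitory hormone of granulosa cells, given here as recombinant mouse protein made in E. coli at 300 ng a day by injection into the peritoneum, starting in prepubertal animals of 21 days. The labels give no genetic change in either group. They do not give the number or stage of the oocytes, the last day of injection, what the controls received, or which animals stand behind a library, so the p-values here measure the spread between libraries, which may be technical.

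Count totals were 66392859 to 72109080 per library. All 12 of 12 oocyte markers, Gdf9 and Bmp15 among them, had counts in every library, and their summed level ranged from 22527 to 28227 CPM over the controls and from 12839.5 to 22117 CPM with AMH. CPM are counts set relative to library size after TMM scaling, which equalises the bulk of genes between libraries. All 12 of 12 cumulus and granulosa markers were counted as well, with sums of 255 to 2473 CPM over the controls and 2011 to 2575 CPM with AMH. Inha (369 and 916 CPM on average) and Gja1 (342 and 780 CPM) had the highest means of this list. Cyp19a1 differed from the sum, with every AMH library below every control (57.3 and 36.6 CPM on average), and Kitl had similar means (5.24 and 5.12 CPM). Control 3 and AMH 3 resembled each other on these lists, with 22527 and 22117 CPM of oocyte markers and 2473 and 2575 CPM of cumulus markers, whereas AMH 1 and 2 had 13400 and 12839.5 CPM of oocyte markers. Oviduct epithelium markers summed to 4.94 to 25.3 CPM over the controls and 37.96 to 403 CPM with AMH, and haemoglobin genes to 0.372 to 3.43 and 21.7 to 345 CPM. Immune markers summed to 4.43 to 7.20 and 7.93 to 19.5 CPM. Ptprc differed from this sum, with a lower mean in AMH libraries and overlapping groups. It had 2.311, 2.338 and 0.3792 CPM in the controls and 0.8995, 1.701 and 0.5798 CPM with AMH. Stroma markers summed to 3.85 to 22.5 and 5.26 to 19.1 CPM. Theca markers summed to 105 to 1169.6 and 934 to 2267 CPM, mostly Cyp11a1 (615.6 and 1662.3 CPM on average). The 3 endothelium markers summed to 162 to 202 and 98.0 to 157 CPM, mostly Pecam1 (170.03 and 109.6 CPM on average). Cdh5 differed from this sum, with every AMH library above every control (0.754 and 2.11 CPM on average). No marker was at 0 in every library, and the theca gene Cyp17a1 reached at most 0.0458 CPM. The part of these markers in the values of the pathway genes was not tested, and fewer cells of a type and less RNA per cell cannot be told apart in such bulk libraries.

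Set per length of gene, as the FPKM that the authors deposited, the pathway was led on average by Rheb and Rictor and ended with Prkaa2. Over all 6 libraries Rheb, the small GTPase that activates mTOR, had 12.9 ± 2.11 FPKM (SD, n = 6) and Rictor 12.6 ± 3.50 FPKM. This pair did not differ beyond its spread. Rictor was the highest of the 10 genes in 3 of 6 libraries and Rheb in 1. In AMH 1 and AMH 2 Tsc2 was the highest, with 11.7 and 11.4 FPKM against 11.6 and 10.8 for Rheb. Tsc2 had 8.69 ± 2.75 FPKM, Tsc1 6.89 ± 1.81, Mtor 6.63 ± 1.58 and Stk11 5.78 ± 2.66, and in this order each lay within the spread of the next, though Tsc2 and Stk11, the ends of this run, lay further apart than 1 SD of either. Prkaa1 followed with 3.78 ± 1.86 FPKM, Rptor with 2.05 ± 0.524 and Mlst8 with 2.00 ± 1.09. Prkaa2 had 0.589 ± 0.166 FPKM and was the lowest of the 10 genes in 5 of 6 libraries, with Mlst8 the lowest in the other one. For 9 of the 10 genes the length behind these values equals all exon bases annotated in GENCODE M21, which can exceed the mature transcript. The exception is Mlst8, with 3366 bases in the file against 4435 exon bases and a longest coding transcript of 3855 bases. For Rheb the file gives 7721 bases, against 1784 bases for the longest coding transcript in GENCODE M21, so that its level would be 55.6 ± 9.12 on the transcript's length. With transcript lengths, a choice made after seeing the data, Stk11 moved ahead of Mtor and Rptor ahead of Prkaa1, and Rheb and Rictor stayed first and second.

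On the AMPK side, the activating kinase and 1 of the catalytic subunits had higher mean values in AMH libraries and the other catalytic subunit a lower one, the latter not with scaling to the oocyte markers. Stk11 (10, 80115803 to 80130682, plus strand of GRCm38), which encodes the kinase LKB1 that phosphorylates AMPK, had 16.0, 19.0 and 18.1 CPM in controls 1, 2 and 3 and 25.3, 44.6 and 41.7 CPM in AMH 1, 2 and 3. Every AMH library thus lay above every control, and the controls were close together. The means were 17.7 ± 1.52 and 37.2 ± 10.4 CPM (SD, n = 3 each), a 2.10-fold difference, with a log2 fold change of 1.07 (SE 0.26, edgeR adjusted p = 0.116). Prkaa1 (15, 5143861 to 5181899, plus strand) encodes the alpha 1 catalytic subunit of AMPK. It had 9.71, 7.56 and 17.6 CPM in the controls and 28.1, 27.8 and 18.3 CPM in the AMH libraries. The groups did not overlap, but control 3 and AMH 3 lay side by side, as they did for cumulus markers. These 2 libraries were below AMH 1 and 2 for Prkaa1. For cumulus markers they were above them, at 2473 and 2575 CPM against 2369 and 2011 CPM. The log2 fold change of Prkaa1 was 1.09 (SE 0.37, edgeR adjusted p = 0.117). Prkaa2 (4, 105029874 to 105109890, minus strand), the alpha 2 catalytic subunit, had 5.75, 7.31 and 4.02 CPM in the controls and 3.96, 4.004 and 4.15 CPM in the AMH libraries. Here the AMH libraries were nearly identical and control 3 lay among them, so that the groups overlapped (log2 fold change -0.50, SE 0.30, edgeR adjusted p = 0.233).

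Prkaa1 and Prkaa2 are paralogs with opposite mean differences under TMM scaling, so their transcripts were compared for sequence that reads could confuse. No stretch of 50 bases of the longest coding transcript of either gene occurred in a transcript of another gene in GENCODE M21. The longest run of identical bases between the pair was 35 bases, at positions 48 to 82 of the Prkaa1 transcript and 99 to 133 of the Prkaa2 transcript, a short way into the coding part of each. It is shown as the longest exact match, and capitals are not used in it. The transcripts were not aligned, so their likeness with mismatches allowed was not measured.
Prkaa1 and Prkaa2, shared run: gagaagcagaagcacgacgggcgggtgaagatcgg

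Promoters are shown for the 3 of 10 genes whose AMH libraries all lay above all controls, as they did for 26.9% of all tested genes. Their profiles differed, since among AMH libraries Stk11 was lowest in AMH 1 and Prkaa1 and Rptor in AMH 3. Each sequence is the 250 bases before the annotated start of the gene in RefSeq on GRCm38.p6, 5′ to 3′ on the plus strand. Capitals mark CCAAT, an element bound by NF-Y, and GGCGGG, a core of Sp family sites, each searched on both strands. All 10 genes matched 1 promoter window each in the RefSeq table, and the motifs were chosen after the sequences were seen.
Stk11, chr10:80115545-80115794: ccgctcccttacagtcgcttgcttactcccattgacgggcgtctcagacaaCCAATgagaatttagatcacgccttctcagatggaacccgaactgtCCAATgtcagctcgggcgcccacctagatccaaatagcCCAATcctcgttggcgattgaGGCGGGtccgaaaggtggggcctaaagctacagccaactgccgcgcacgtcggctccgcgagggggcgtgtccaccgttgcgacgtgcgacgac
Prkaa1, chr15:5143611-5143860: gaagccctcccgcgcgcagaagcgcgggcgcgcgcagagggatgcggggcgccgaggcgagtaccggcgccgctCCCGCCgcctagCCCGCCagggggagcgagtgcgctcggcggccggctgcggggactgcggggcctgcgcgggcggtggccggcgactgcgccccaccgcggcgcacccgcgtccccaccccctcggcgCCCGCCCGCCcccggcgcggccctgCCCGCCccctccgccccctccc
Rptor, chr11:119602655-119602904: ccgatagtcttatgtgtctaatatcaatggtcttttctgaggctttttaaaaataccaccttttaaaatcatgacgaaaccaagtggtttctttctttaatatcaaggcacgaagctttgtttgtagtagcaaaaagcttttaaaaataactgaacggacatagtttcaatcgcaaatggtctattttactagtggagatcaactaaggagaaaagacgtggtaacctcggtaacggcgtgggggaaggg

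Over the full window of 300 bases, which runs to 50 bases after the start, the 3 promoters had little in common. Stk11 held 3 matches of CCAAT and 1 of GGCGGG, Prkaa1 held 5 of GGCGGG, which overlap in 1 place, and none of CCAAT, and Rptor held neither. Of all 32851 windows of this length in the table, 37.4% held CCAAT and 35.3% held GGCGGG. Among the other members Mtor held 4 matches of CCAAT and 3 of GGCGGG, and Rheb was the only one of the 10 with CACGTG, the core of E-box elements bound by TFEB and related factors, which 7.15% of all windows held. CG dinucleotides numbered 52 in Prkaa1, 33 in Stk11 and 13 in Rptor, against a median of 7 over all windows.

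Among the mTOR complex genes, Rptor and Mlst8 had higher and Mtor and Rictor lower mean values in AMH libraries with TMM scaling, and the latter pair turned positive with scaling to the oocyte markers. Mtor (4, 148448611 to 148557683, plus strand), the kinase itself, had 74.9, 90.4 and 71.7 CPM in the controls and 49.1, 79.9 and 50.5 CPM in the AMH libraries. AMH 2 lay within the control range and the other AMH libraries below it (log2 fold change -0.40, SE 0.24, edgeR adjusted p = 0.224). Rptor (11, 119602905 to 119899576, plus strand) encodes raptor, the scaffold of the growth-promoting complex. Its levels were 21.3, 22.5 and 26.9 CPM in the controls and 39.1, 34.0 and 27.9 CPM in the AMH libraries. The groups did not overlap, though AMH 3 was only just above control 3 (log2 fold change 0.52, SE 0.21, edgeR adjusted p = 0.128). Mlst8 (17, 24473550 to 24479078, minus strand), a subunit of both complexes that binds the kinase domain, had 3.47, 2.67 and 7.17 CPM in the controls and 12.8, 8.66 and 7.02 CPM in the AMH libraries. Its AMH mean was 2.14 times the control mean, yet AMH 3 lay just below control 3 (log2 fold change 1.10, SE 0.45, edgeR adjusted p = 0.128). Rictor (15, 6708379 to 6800401, plus strand), the scaffold of the other complex, had 269, 268 and 254 CPM in the controls and 121, 160.3 and 257 CPM in the AMH libraries. AMH 1 and 2 were far below the tightly grouped controls and AMH 3 was within them. Oocyte markers were likewise far lower in AMH 1 and 2 than in the controls, with AMH 3 just below the lowest control, and their part in the Rictor values was not tested. The Rictor difference did not pass the test (log2 fold change -0.56, SE 0.28, edgeR adjusted p = 0.171).

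**Figure D1:**
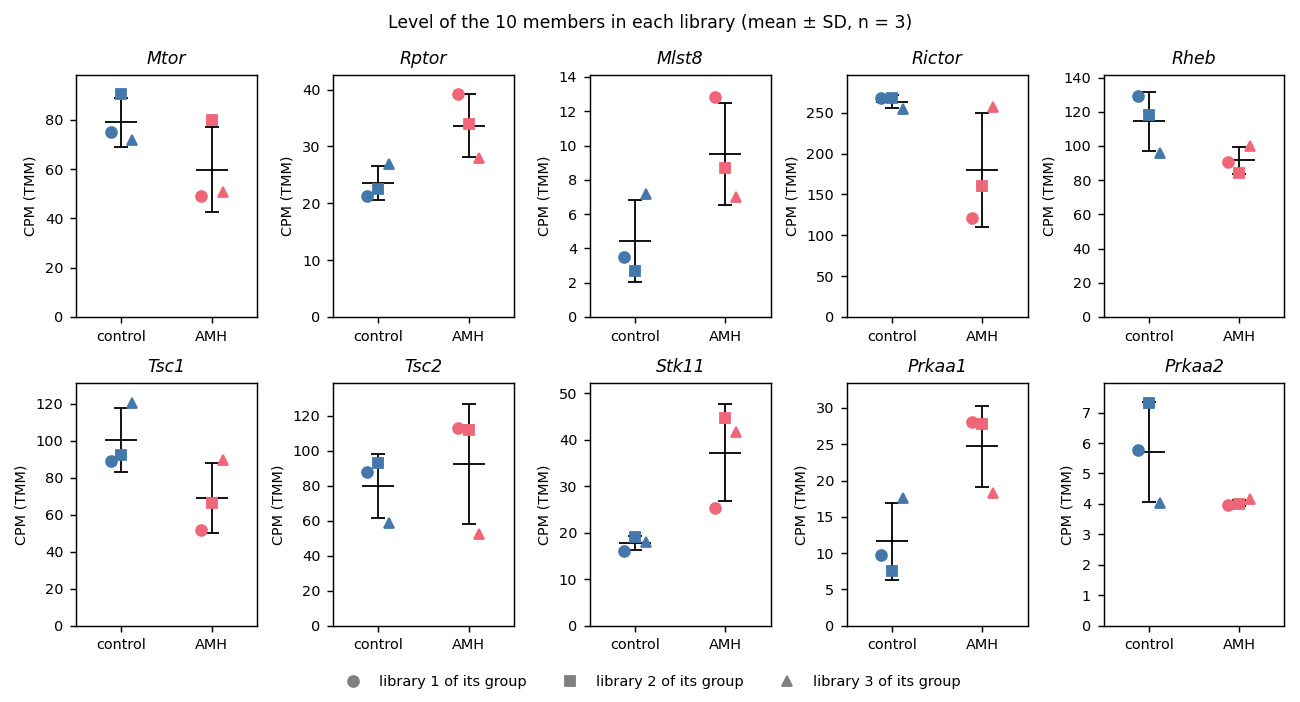
Level of each of the 10 genes in CPM (TMM scaling, vertical axes starting at 0) in the 3 control and 3 AMH libraries; symbols are single libraries and bars are the mean ± SD. Every AMH library lies above every control for Stk11, Prkaa1 and Rptor, and the groups overlap for the other 7 genes.

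Upstream of Rheb, Tsc1 had a lower and Tsc2 a higher mean in AMH libraries with TMM scaling; Tsc1 turned with scaling to the oocyte markers and Tsc2 with upper-quartile scaling. Tsc1 (2, 28641228 to 28691167, plus strand), which stabilises Tsc2, had 89.0, 92.3 and 120.3 CPM in the controls and 52.0, 66.2 and 89.4 CPM in the AMH libraries. AMH 3 lay between controls 1 and 2, and AMH 1 and 2 were below all controls (log2 fold change -0.54, SE 0.24, edgeR adjusted p = 0.146). Tsc2 (17, 24595816 to 24632630, minus strand), the subunit that inactivates Rheb, had 87.9, 93.2 and 58.7 CPM in the controls and 113, 112 and 52.7 CPM in the AMH libraries. Control 3 and AMH 3 were the lowest of the 6 libraries, and the other AMH libraries were the highest (log2 fold change 0.21, SE 0.34, edgeR adjusted p = 0.626). Rheb (5, 24802823 to 24842624, minus strand) had 129, 118 and 95.7 CPM in the controls and 90.5, 84.4 and 100.01 CPM in the AMH libraries. Only AMH 3 exceeded a control, namely control 3 (log2 fold change -0.32, SE 0.17, edgeR adjusted p = 0.194).

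**Figure D2:**
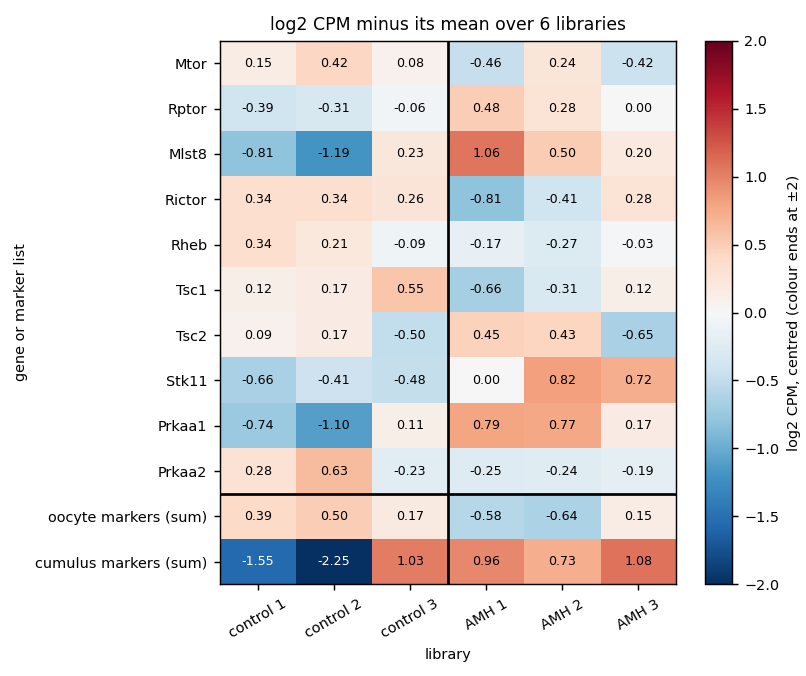
Log2 CPM of each gene in each library minus its mean over the 6 libraries (rows, with the summed oocyte and cumulus markers at the bottom; columns are libraries). Mlst8 and Prkaa1 have their lowest values, -1.19 and -1.10, in control 2, where cumulus markers are also lowest at -2.25, and Rictor and oocyte markers have values of -0.81 and -0.58 in AMH 1. In control 3 and AMH 3 Mlst8 (0.23 and 0.20) and Prkaa1 (0.11 and 0.17) are below AMH 1 and 2. Cumulus markers (1.03 and 1.08) are above AMH 1 and 2 there.

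None of the 10 genes passed edgeR's quasi-likelihood test over 18868 genes, in which 0 genes (0%) passed. At an unadjusted p under 0.05, Stk11, Prkaa1, Mlst8 and Rptor were higher, or 4 of 10 against 20.2% of all tested genes, and 0 of 10 were lower against 17.3%. AMH libraries lay above all controls for 3 of 10 genes, close to the 26.9% of all tested genes, and below all controls for 0 of 10, where 23.3% of all genes did. The median log2 fold change of the 10 genes was -0.05, beside -0.01 over all genes tested. DESeq2 called Stk11 (adjusted p = 0.00881) and Prkaa1 (adjusted p = 0.0383) higher, 2 of 10 where it called 18% of all genes, and 0 of 10 lower where it called 8.64%. Neither limma-voom nor limma on FPKM called a member, as they called 0 of 18868 and 0 of 11894 genes. Prkaa2 was not among the genes tested on FPKM.

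The calls depended on control 3 and AMH 3. Without control 3, edgeR called Mlst8, Stk11 and Prkaa1 higher (adjusted p = 0.0217, 0.0340 and 0.0185), with 26.8% of all genes called higher and 11.2% lower. Without AMH 3 it called Rictor lower (adjusted p = 0.0409), with 1.45% of all genes called higher and 6.73% lower. With both left out, a choice made after seeing the data, edgeR called Prkaa1, Mlst8 and Rptor higher and Rictor, Rheb and Tsc1 lower in 2 against 2 libraries, where 29.4% of all genes were called higher and 21.6% lower. In those 4 libraries Mlst8 had a log2 fold change of 1.83, Prkaa1 of 1.72 and Rictor of -0.91. The groups then did not overlap for 5 genes higher and 4 lower, as for 44.6% and 41.4% of all genes.

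The choice of scaling shifted the whole distribution. Over the tested genes the median log2 difference stood at 0.26 when libraries were scaled by total count alone, at -0.23 by upper quartile and at 0.73 by oocyte markers. Stk11, Prkaa1, Mlst8 and Rptor had positive log2 fold changes under each of these scalings. Rictor, Tsc1, Mtor, Rheb and Prkaa2 had negative ones under TMM, total-count and upper-quartile scaling and positive ones, from 0.094 for Rictor to 0.42 for Rheb, with scaling to the oocyte markers. Relative to oocyte transcripts, Rictor, Tsc1 (0.12) and Prkaa2 (0.27) were therefore within 1 standard error of 0. Tsc2 was at -0.043 with upper-quartile scaling and positive otherwise.

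**Figure D3:**
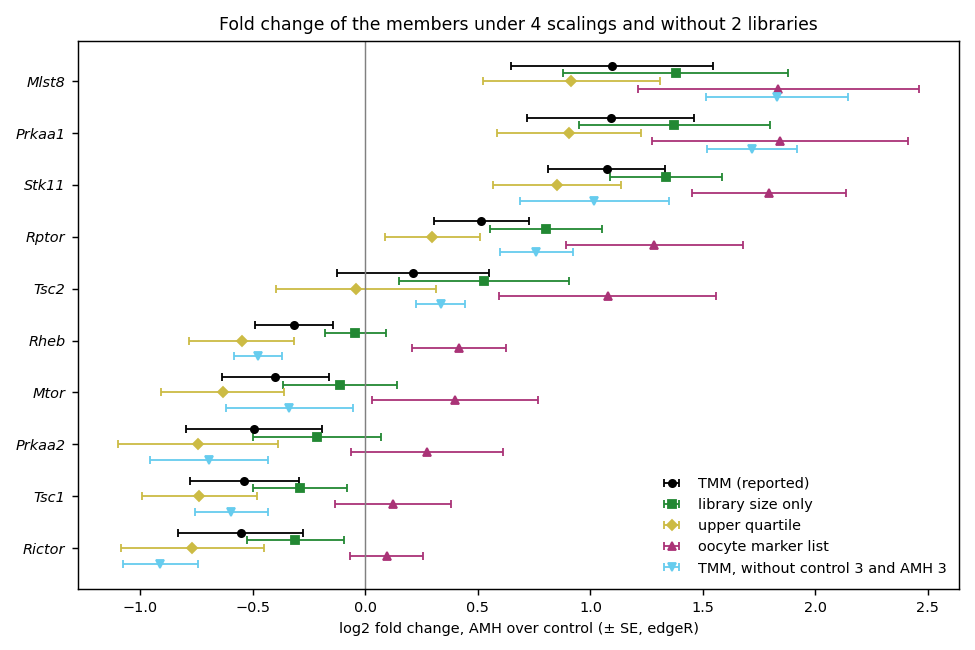
Log2 fold change (AMH over control, bars ± SE) of each gene in edgeR under 4 scalings and, with TMM, without control 3 and AMH 3. The 4 genes at the top stay above 0 throughout, Tsc2 is at -0.043 with upper-quartile scaling, and the 5 genes at the bottom are below 0 except with scaling to oocyte markers.

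Ratios of genes within a library do not depend on the scaling, and 3 of 5 had separate groups. The ratio of Prkaa1 to Prkaa2 FPKM, the balance of the alternative catalytic subunits of AMPK, was 2.89, 1.77 and 7.49 in the controls and 12.2, 11.9 and 7.55 in the AMH libraries. Prkaa1 was thus the more abundant subunit per length in every library, and control 3 nearly equalled AMH 3. The ratio of Rptor to Rictor, the scaffolds of the alternative complexes, was 0.0994, 0.105 and 0.133 in the controls and 0.406, 0.266 and 0.136 in the AMH libraries. Again AMH 3 was only just above control 3, and AMH 1 and 2 stood well apart. For Mlst8 to Mtor the ratio was 0.139, 0.0885 and 0.300 in the controls and 0.783, 0.326 and 0.417 in the AMH libraries. These 3 ratios differed by 1.61 (SE 0.65), 1.13 (SE 0.48) and 1.61 (SE 0.64) on the log2 scale, each with a two-sided exact permutation p = 0.1, the smallest that 3 against 3 libraries allow, and an adjusted p = 0.167 over the 5 ratios. The groups overlapped for Tsc1 to Tsc2, at 1.10 ± 0.492 and 0.745 ± 0.552 (exact permutation p = 0.4, adjusted p = 0.5), and for Rheb to Mtor, at 1.90 ± 0.307 and 2.13 ± 0.653 (exact permutation p = 0.8, adjusted p = 0.8).

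**Figure D4:**
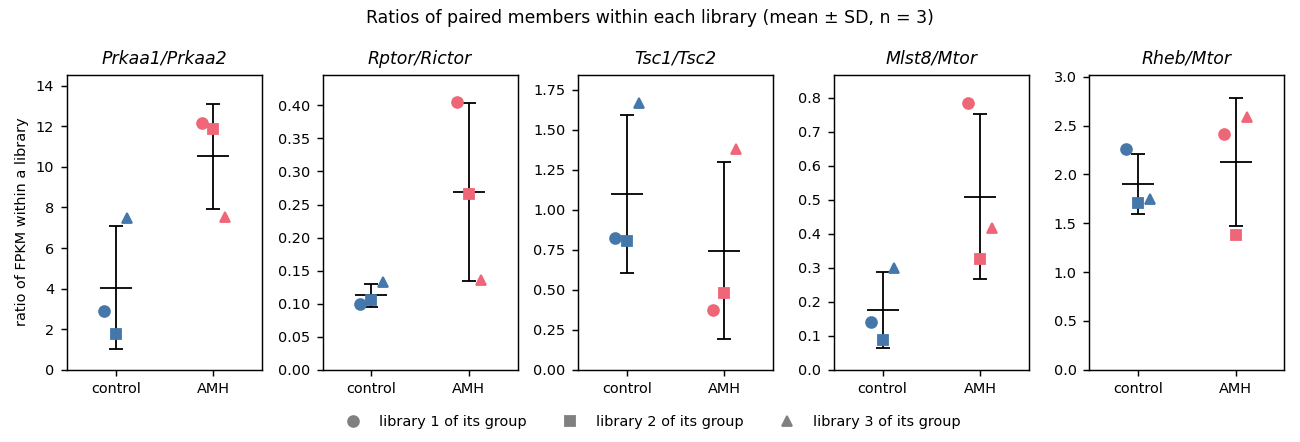
Ratio of the FPKM of paired genes within each library (vertical axes starting at 0; symbols are libraries, bars mean ± SD, n = 3). For Prkaa1/Prkaa2, Rptor/Rictor and Mlst8/Mtor every AMH library lies above every control, with control 3 and AMH 3 at 7.49 and 7.55, 0.133 and 0.136, and 0.300 and 0.417.

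Several of the genes overlap a neighbour on the other strand, which matters where counting ignores strand, a setting not given in the sources used here. Exons of Mlst8 share 22.5% of their bases with Bricd5, all 997 bases of which lie within them. Bricd5 had 0 counts in every library, which says nothing about its reads if strand was ignored, since such reads could not be assigned to either gene. For Tsc2, 7.20% of exon bases are shared with Pkd1, at 30.9 ± 20.8 CPM in the controls and 47.4 ± 6.14 CPM with AMH. For Stk11 the share is 5.07% with Cbarp, at 0.733 ± 0.721 and 2.18 ± 0.537 CPM, far below the level of Stk11 itself, and for Rptor it is 0.624% with Rptoros, at most 1.16 CPM. The other 6 genes overlap no exon of another gene.

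The wider pathway was described with 72 further genes in 7 roles, of which 71 were tested and 0 passed edgeR's test in either direction. At an unadjusted p under 0.05, 19 were higher and 16 lower, beside 20.2% and 17.3% of all tested genes. AMH libraries lay above all controls for 20 and below them for 18, beside 26.9% and 23.3% of all tested genes. The median log2 fold change of the 71 pathway genes was -0.02. DESeq2 called 17 of the 71 higher and 4 lower, beside 18% and 8.64% of all genes. Without control 3, edgeR called 25 higher and 5 lower (26.8% and 11.2% of all genes). Without AMH 3 the counts were 2 and 9 (1.45% and 6.73%), and without both libraries 26 and 19 (29.4% and 21.6%). Directions below are those of TMM scaling. Of the pathway genes named below, negative values that turn with scaling to the oocyte markers are those of Tti1 (0.15), Pdpk1 (0.030), Prkab1 (0.16), Prkab2 (0.57), Mapkap1 (0.14) and Rragc (0.020). Of these, Prkab2 was also positive with library size only (0.12). Pathway genes not named are left out of this list, and scaling to the oocyte markers moved the median of all 71 to 0.74.

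Among the 9 tested partners of AMPK, 2 lay above all controls and 2 below, beside 26.9% and 23.3% of all genes. The gamma subunits, which bind AMP and ATP, had the smallest p in this role. Means ± SD over 3 control and then 3 AMH libraries were 4.84 ± 1.46 and 13.7 ± 3.22 CPM for Prkag2 and 5.01 ± 1.47 and 9.42 ± 2.51 CPM for Prkag1, both without overlap. The third gamma gene, Prkag3, was the untested one, with 0 counts in each library, which allows up to 0.0468 CPM at 3 counts. Of the beta subunits, which anchor the others and were chosen after their values were seen, Prkab1 far exceeded Prkab2, with 133 against 4.75 FPKM over all libraries. For Prkab1 the means were 500.3 ± 38.8 and 347 ± 88.8 CPM, with AMH 3 (449.8) next to control 3 (456).

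Of 8 other mTOR complex subunits and assembly factors, 4 lay below all controls and 1 above, where 23.3% and 26.9% of all genes did. With scaling to the oocyte markers 0 of the 71 pathway genes lay below all controls and 37 above. Of all 18868 tested genes, 143 lay below and 7248 above with that scaling. Prr5l, a partner of the Rictor-containing complex, had 185 ± 31.5 CPM in the controls against 110.2 ± 15.5 CPM with AMH. Tti1, which helps assemble complexes of mTOR-like kinases, had 157 ± 19.96 and 105 ± 12.2 CPM. For Mapkap1, a core subunit of the Rictor-containing complex named after its values were seen, the means were 339 ± 16.0 and 233 ± 59.1 CPM. Of the 4 partners of Tsc and Rheb, Tbc1d7, the third subunit of the Tsc complex, had 3.56 ± 0.742 and 7.70 ± 0.638 CPM, and Ddit4l, an inhibitor of mTOR signalling, had 3.88 ± 2.05 and 17.5 ± 9.27 CPM, each above all controls. Its relative Ddit4, a stress-induced inhibitor named after its values were seen, was below all controls at 127 ± 27.3 and 68.8 ± 25.3 CPM.

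Rag GTPases and Ragulator bring mTOR to the lysosome when amino acids are present. They had 2 of 13 genes above all controls and 3 below, beside 26.9% and 23.3% of all genes. The Ragulator genes Lamtor5 and Lamtor4 had 13.0 ± 1.96 and 4.93 ± 1.73 CPM in the controls against 30.7 ± 5.01 and 13.9 ± 3.56 CPM with AMH. Rragc, a Rag GTPase named after its values were seen, was the most abundant of this role by FPKM (367 over all libraries), with 1563 ± 149.9 and 988 ± 275 CPM. Of 16 GATOR and amino acid sensor genes, 6 were above all controls and 3 below, to be read against the same shares of all genes. Kptn, of the complex that tethers the inhibitory GATOR unit to the lysosome, had 2.52 ± 1.18 and 7.04 ± 1.49 CPM, and Nprl3, a subunit of that unit, 8.10 ± 3.78 and 19.7 ± 6.28 CPM.

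Upstream kinases had 1 of 7 genes above all controls and 3 below, beside 26.9% and 23.3% of all genes. Pdpk1, which activates Akt kinases, had 193 ± 7.05 CPM in the controls against 121 ± 29.1 CPM with AMH, and Akt2 had 38.3 ± 15.2 and 68.1 ± 7.49 CPM. Of 14 targets of the pathway, 6 lay above all controls and 2 below, beside 26.9% and 23.3% of all genes, with a median log2 fold change of 0.71. No difference between roles was tested. Rps6, the ribosomal protein phosphorylated downstream of mTOR, had 27.4 ± 11.6 and 91.05 ± 26.2 CPM, and Eif4ebp2, a repressor of translation that mTOR inactivates, had 10.4 ± 1.12 and 19.2 ± 2.10 CPM. Sgk1, a kinase downstream of the Rictor-containing complex named after its values were seen, had 275, 60.7 and 352 CPM in the controls and 1228, 1044 and 496 CPM in the AMH libraries. All AMH libraries were above all controls, and control 2 was lowest, as it was for cumulus markers. Control 3 and AMH 3 were below AMH 1 and 2 for Sgk1 but above them for cumulus markers. The part of cumulus RNA in these values was not tested.

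**Figure D5:**
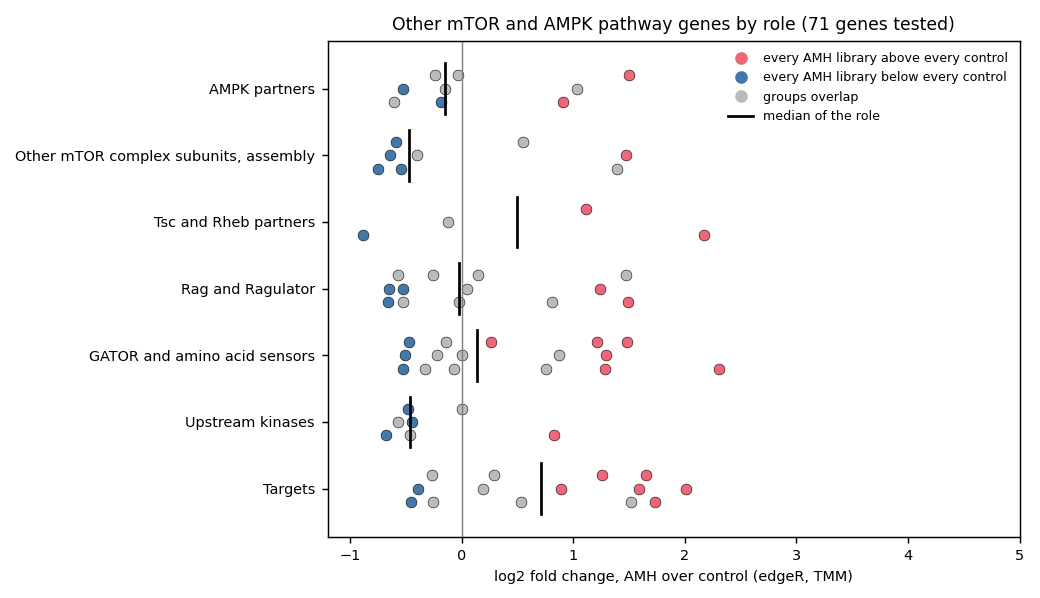
Log2 fold change (AMH over control, edgeR with TMM) of the 71 tested pathway genes by role; colours give whether the AMH libraries lie above, below or among the controls, and black bars are role medians, from -0.47 for other mTOR complex subunits to 0.71 for targets. With scaling to the oocyte markers all values shift upward, and the median of the 71 genes is 0.74.

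For Mtor and Prkaa1 the genes with the most similar profiles were also sought. Likeness was measured as the root-mean-square difference of mean-centred log2 CPM over the 6 libraries, among 9956 protein-coding genes with at least 5 CPM. Closest to Mtor were Samd8 (0.07), Wasf2 (0.08) and Usp45 (0.09), and Wasf2, a regulator of actin branching, had 110, 134 and 95.6 CPM in the controls and 78.3, 110.04 and 74.2 CPM in the AMH libraries. Closest to Prkaa1 were Tubgcp2 (0.03), Eif3d (0.04) and Ints11 (0.05). Tubgcp2, a subunit of the microtubule-nucleating gamma-tubulin complex, had 11.1, 8.29 and 20.4 CPM in the controls and 31.4, 31.8 and 21.1 CPM in the AMH libraries, the same order of libraries as Prkaa1 except between AMH 1 and 2.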

How the data were processed

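Raw counts and FPKM of every gene in the 3 control and 3 AMH libraries were deposited by the authors. Per the submitters' processing notes, the tools were DESeq2 1.20.0, HISAT2 2.0.5 and featureCounts 1.5.0-p3, with mouse build GRCm38. What each did, and whether reads were counted by strand, is not given in the sources used here. Each FPKM the authors deposited equals the count per gene length and per 1 effective size of a library, 0.924 to 0.997 of the count total in control and 1.05 to 1.18 of it in AMH libraries, so FPKM and count tests are not independent.

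Counts were tested with edgeR 4.0.16 in R 4.3.3 (quasi-likelihood, robust, TMM, filterByExpr, group only, Benjamini-Hochberg at 0.05 over 18868 genes). Alternatives were DESeq2 1.42.0, limma 3.58.1 (voom, or log2 of FPKM plus 1 or 0.1 where 3 or more libraries exceeded 1 FPKM), other scalings and filters, the replicate block and leaving out libraries. The fits were tested on simulated data. No 2 libraries agreed within sampling noise (lowest chi-square per degree of freedom 55.9). This lowest value was for control 3 and AMH 3, which come from different groups. Controls 1 and 2 had 66.0, and AMH 1 and 2 had 69.2. Control 3 had 191 and 350 with controls 1 and 2, and AMH 3 had 274 and 239 with AMH 1 and 2.

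Pathway genes named are, per role, those past the test or else the 2 of smallest p; others are marked as chosen after their values were seen. The genes, lists and rules were chosen with earlier results of these data known. Pathway roles refer to textbook function. Motifs kept were 3 of 6 searched. RefSeq promoters and GENCODE M21 transcripts gave sequences.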

Additional observations from a re-analysis of the deposited data

How the results depend on the processing

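With 18 alternatives, Stk11, Prkaa1, Mlst8 and Rptor kept a positive log2 fold change in each. Among the members and the named pathway genes, scaling to oocyte markers turned Mtor (0.40), Rictor (0.094), Tsc1 (0.12), Rheb (0.42), Prkaa2 (0.27), Tti1 (0.15), Pdpk1 (0.030), Prkab1 (0.16), Prkab2 (0.57), Mapkap1 (0.14) and Rragc (0.020) positive, by its construction, which raises the values of all genes. Library size only turned Prkab2 (0.12), and upper-quartile scaling turned Tsc2 (-0.043). The median of the members, -0.05 as reported, was 0.24 with library size only, -0.30 with upper quartile, 0.75 with oocyte markers, and 0.26, 0.17 and 0.18 with at least 5 CPM in 3 libraries, log2(FPKM + 1) and log2(FPKM + 0.1), where Prkaa2 was not tested. The pathway median, -0.02 as reported, was 0.25, -0.22 and 0.74 with those scalings and -0.12 with log2(FPKM + 0.1).

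DESeq2 called 4535 genes, 2 members and 21 pathway genes, and the cause was not tested. Leaving out 1 library gave 0 to 7513 genes, 0 to 3 members and 0 to 30 pathway genes called, the most without control 3, where 25 pathway genes were higher and 5 lower; without AMH 3 these were 1607 genes, 1 member and 11 pathway genes. Members without overlap then numbered 3 to 9, while 52.3% to 74.3% of all genes had none. Without control 3 and AMH 3, chosen after seeing the data, 9885 genes, 6 members and 45 pathway genes were called, and 9 members had no overlap. The ratio of Rheb to Mtor differed by -0.048 to 0.41 on the log2 scale with 1 library left out. Ranks by level changed for 0 to 2 members with 1 library left out and for 4 with transcript lengths.

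Whether equal replicate numbers pair the libraries is not given in the labels. Deviations from group means correlated at 0.06, -0.10 and -0.25 for numbers 1, 2 and 3 (across genes), and at -0.30 to 0.32 for unequal numbers. Deviations from a mean of 3 libraries depend on each other, so these values cannot decide whether the libraries are paired. With the replicate block edgeR called 0 genes, 0 members and 0 pathway genes, the medians were -0.08 for members and -0.02 for pathway genes, and the ratios had exact sign-flip p of 0.25 to 0.75, where 3 pairs cannot go below 0.25. Member counts were 171 to 17327 per library. For Prkaa2, with 272 to 321 counts in the AMH libraries, the AMH SD of 0.101 CPM on a mean of 4.04 CPM is smaller than counting error alone would give, so the closeness of these libraries says little about their true spread.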
